A study of Sus scrofa with 80 samples.

Results

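The genes described here build, move or service the sperm flagellum and the cilium: the dynein arms, radial spokes and tektins of the axoneme, the outer dense fibres and fibrous sheath that surround it in sperm, the calcium channel of the sperm tail, the transport trains and cargo adaptors of cilia, the enzymes that modify tubulin, and the sperm antigen (SPAG) and spermatogenesis-associated (SPATA) genes named for the tissue in which they were first found. They were chosen by name, with earlier results of these data known. The rule took all array genes whose symbol begins with DNAH, DNAI, DNAL, TEKT, ODF, ROPN, SPAG, SPATA, TTLL, IFT, BBS, RSPH or CATSPER. It also took AKAP3 and AKAP4. The rule found 84 genes among the 23722 genes analysed, in 11 families. It reads symbols only, so genes that the array lists under a transcript identifier were not found by it and are described separately.

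Gene expression was measured in healthy Göttingen minipigs, a small pig breed used in drug testing, with 1-colour Agilent arrays of 60-base probes designed for this animal. Testis came from 5 males, the youngest 1 week and the oldest 2 years old, with 4 weeks, 2 months and 4 months between them. The samples of the first month are called infant testis (n = 2) and the other 3 mature testis (n = 3), because males become fertile at about 2 months. The 3 brain regions (cerebellum, hypothalamus, cortex), spleen, bone marrow, kidney and liver came from 1 male and 1 female at each age up to 4 months and from 1 male at 2 years, which gives 9 samples per tissue and 63 in all. Ovary came from 1 female at each age up to 4 months (n = 4), and renal pelvis from 1 male at 2 years. No animal was treated. Each age of testis is 1 sample, and the labels name no animals, so p-values measure only the spread between these samples, which may be in part technical. The 2-year male was raised, fed and euthanised differently from the younger animals, and all 16 arrays of 2-year samples lie on 2 slides of their own, so that age, husbandry and slide cannot be told apart for that sample. The 5 testis samples lie on 5 different slides.

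A motile cilium and a sperm tail share the axoneme, a ring of microtubule doublets whose dynein arms slide the doublets against each other, while radial spokes and a central pair of microtubules regulate the beat. Sperm tails add outer dense fibres, a fibrous sheath and the CatSper calcium channel, which other cells do not build, and they are assembled late in spermatogenesis, in haploid spermatids. Most other cells carry a single non-motile cilium that needs intraflagellar transport and the BBSome, a cargo adaptor, but no dynein arms.

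All levels are log2 intensities after background correction and quantile normalization, averaged over the probes of a gene, so a difference of 1 is a 2-fold ratio. A gene counted as detected on an array when it exceeded 95% of the negative control spots there, a limit between 2.35 and 3.46, and 72.6% to 93.7% of genes did so. Of the 84 genes, 5 had 1 probe (DNAH11, ODF3B, SPATA7, SPATA22 and TTLL7), 70 had 2 and 9 had 3 or more. No gene had probes that moved more than 2-fold in opposite directions between infant and mature testis, but in 10 genes the differences given by single probes spanned more than 4-fold (AKAP4, CATSPER2, DNAH12, IFT57, ODF1, RSPH3, SPAG8, SPATA4, TTLL13 and TTLL6). The tissue labels were checked against defining markers. Albumin lay between 9.35 and 10.30 in liver and no higher than 4.63 elsewhere, and the Leydig cell hormone INSL3 at 15.92 or above in all 5 testis samples. In hypothalamus, the neuropeptide genes PMCH (2.06 to 2.87) and AVP (1.84 to 3.35) lay near the detection limit and HCRT and OXT were no higher than in other tissues, so these markers did not set that tissue apart.

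Most of the flagellum and cilium genes rose between infant and mature testis. By limma over all genes with Benjamini-Hochberg adjustment, 54 of the 84 were higher in mature testis (64.3%), where 16.4% of all genes on the array were called higher. A fall was called for 3 genes (3.57%), where 27.5% of all genes were called lower, and 27 genes were not past the threshold. At an unadjusted p under 0.05, 63 genes passed. The median difference was 1.56 over the 84 genes and -0.21 over all genes. In 63 of the 84 every mature sample lay above both infant samples (24.1% of all genes), and in 6 every mature sample lay below both (42.3% of all genes). When 50 was added to every corrected intensity, the median was 0.66 over the 84 genes and -0.04 over all genes. With median scaling these medians were 1.51 and -0.27. In a bulk tissue sample, a larger share of cells of a type and more RNA per cell cannot be told apart.

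**Figure D1:**
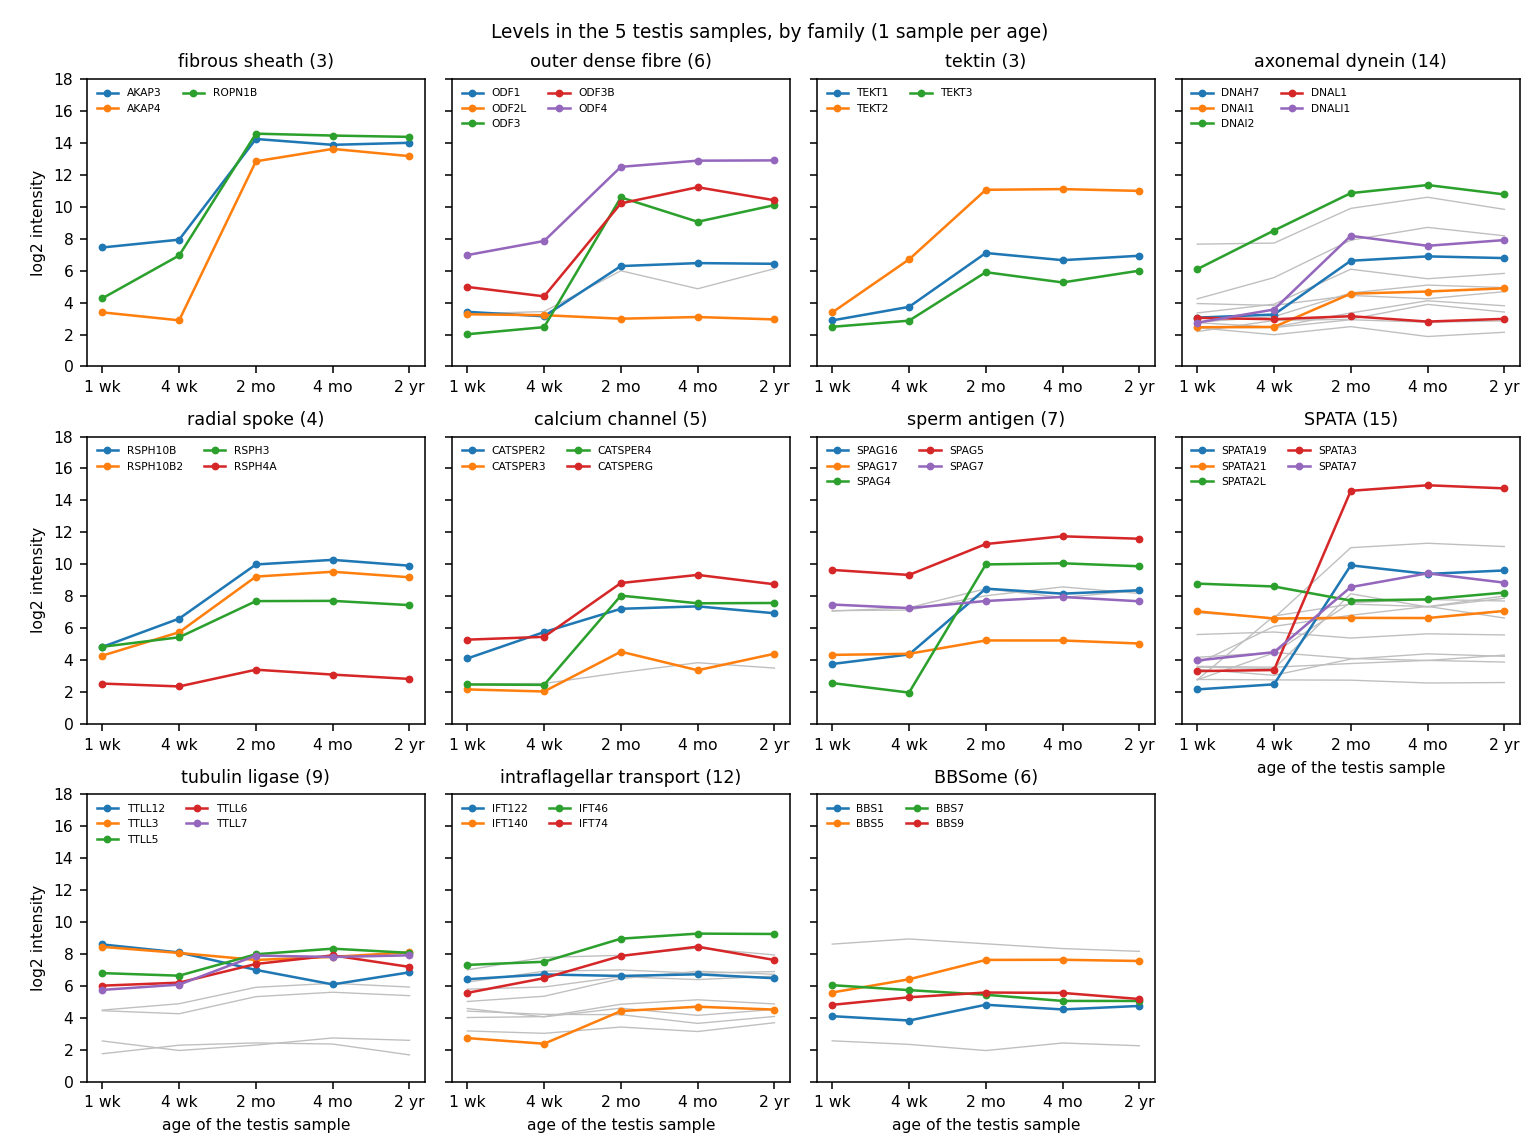
Level (log2 intensity, vertical axis) of each gene in the 5 testis samples, ordered by age on the horizontal axis, with 1 panel per family and its number of genes in brackets. Coloured lines are the genes picked for naming in the comparison of mature with infant testis. Grey lines are the other members, some of which the text also names, such as SPATA8 and SPATA22. Most lines climb between 4 weeks and 2 months and stay level afterwards, for example AKAP4 from 2.89 to 12.84.

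The genes of the fibrous sheath, the tapered sleeve around the principal piece of the sperm tail, showed the largest family median. All 3 on the array rose. AKAP4, a kinase anchoring protein and main component of the sheath, measured 3.39, 2.89, 12.84, 13.62 and 13.16 in the samples from the youngest to the oldest. Both infant samples were dim and the 3 mature ones bright, with no overlap and a difference of 10.07 (SE 0.29, adjusted p = 6.92e-06). Neither infant sample was well above background, so the fold change is a lower bound, at least 1047-fold; such bounds set the mean of the mature samples against, per infant array, the higher of the measured value and the lowest spot well above background. AKAP3, its partner in the sheath, measured 7.45, 7.94, 14.24, 13.87 and 14.00 in the same order of age. It was already well above background in infant testis and rose by 6.34 (SE 0.23, adjusted p = 1.33e-05). ROPN1B, a ropporin that binds the anchoring proteins, measured 4.27, 6.95, 14.57, 14.45 and 14.37, so that the 4-week sample lay between the 1-week sample and the mature ones. Its difference was 8.86 (SE 0.71, adjusted p = 0.000407). ROPN1B has a near-identical paralogue, and its probes may not separate the 2.

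Outer dense fibres are stiff rods that accompany the microtubule doublets of the sperm tail. Of the 6 ODF genes, 5 rose and ODF2L did not pass the test. ODF3 measured 2.02, 2.46, 10.58, 9.06 and 10.10 from 1 week to 2 years. It was not well above background in either infant sample, and the rise of 7.67 (SE 0.45, adjusted p = 0.000109) is at least 127-fold. ODF3B measured 4.98, 4.39, 10.21, 11.22 and 10.40 and rose by 5.93 (SE 0.35, adjusted p = 0.000119), and ODF4 measured 6.97, 7.85, 12.49, 12.88 and 12.90 and rose by 5.34 (SE 0.30, adjusted p = 9.51e-05). ODF1, which encodes a main protein of the fibres, measured 3.42, 3.14, 6.28, 6.47 and 6.43. The 3 mature samples again lay above both infant ones, with a difference of 3.11 (SE 0.18, adjusted p = 0.000108), at least 8.65-fold. ODF2L, whose name marks similarity to a fibre protein that also sits at the centrosome, stayed between 2.94 and 3.27 (adjusted p = 0.307).

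Tektins are rod proteins inside the microtubule doublets, and all 3 on the array rose. TEKT2 measured 3.38, 6.70, 11.06, 11.10 and 10.99. The 4-week sample stood well above the 1-week sample and well below the mature ones and the difference was 6.01 (SE 0.87, adjusted p = 0.00298). TEKT1 rose by 3.59 (SE 0.30, adjusted p = 0.000439), at least 12.0-fold, from 3.31 to 6.89 on average. TEKT3 measured 2.48, 2.87, 5.90, 5.26 and 6.00 and rose by 3.04 (SE 0.28, adjusted p = 0.000676), at least 6.94-fold.

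Of the 14 axonemal dynein genes, 9 rose and 5 did not pass the test. The motor of the doublets consists of heavy chains (DNAH) that hydrolyse ATP and of intermediate and light chains that place them. DNALI1, a light intermediate chain of the inner arm, measured 2.74, 3.56, 8.18, 7.55 and 7.91. Its rise was 4.73 (SE 0.31, adjusted p = 0.00018), at least 25.2-fold. DNAI2, an intermediate chain of the outer arm, measured 6.09, 8.51, 10.85, 11.35 and 10.77, with the 4-week sample midway between the 1-week sample and the mature ones. It rose by 3.69 (SE 0.67, adjusted p = 0.00621). Its partner in the outer arm, DNAI1, measured 2.46, 2.47, 4.55, 4.69 and 4.89 and rose by 2.25 (SE 0.18, adjusted p = 0.00041), at least 3.46-fold. Among the heavy chains, DNAH7 of the inner arm measured 3.06, 3.25, 6.61, 6.89 and 6.78 and rose by 3.61 (SE 0.18, adjusted p = 5.78e-05), at least 12.2-fold. DNAH3, DNAH6, DNAH10, DNAH11 and DNAH12 were the other heavy chains that rose, by 1.15 to 3.37. DNAH11 was not well above background in any infant or mature sample. DNAH1, DNAH8, DNAH9, DNAH14 and the light chain DNAL1 did not pass the test, with differences from -0.04 to 0.88. DNAH8 was not detected in all mature samples, and DNAL1 had the smallest difference of those detected in every testis sample, -0.02 with an adjusted p of 0.933.

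Radial spokes link the doublets to the central pair. RSPH10B, RSPH10B2 and RSPH3 rose and RSPH4A did not pass the test. RSPH10B measured 4.83, 6.60, 9.99, 10.28 and 9.92, RSPH10B2 measured 4.29, 5.75, 9.23, 9.54 and 9.19, and their rises were 4.35 (SE 0.50, adjusted p = 0.00138) and 4.30 (SE 0.42, adjusted p = 0.00083). These 2 genes are near-identical copies in other mammals, and their probes may read the same transcripts. RSPH3 rose by 2.48 (SE 0.23, adjusted p = 0.000735). RSPH4A, a spoke head protein of motile cilia, stayed near the detection limit at 2.54, 2.36, 3.41, 3.10 and 2.83. All 3 of its mature samples lay above both infant samples, but the difference was 0.66 (SE 0.22, adjusted p = 0.0537). Of the central pair genes on the array, SPAG16 measured 3.77, 4.36, 8.48, 8.17 and 8.38 and rose by 4.28 (SE 0.24, adjusted p = 8.68e-05), and SPAG17 rose by 0.81 (SE 0.17, adjusted p = 0.0108). The call for SPAG17 was lost without the 1-week sample (adjusted p = 0.0511 by limma).

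All 5 CatSper genes rose. CatSper is a calcium channel of the sperm tail made of 4 pore proteins and several auxiliary ones. The pore gene CATSPER4 measured 2.48, 2.46, 8.04, 7.56 and 7.58, with both infant samples at background, and rose by 5.26 (SE 0.21, adjusted p = 2.43e-05), at least 28.0-fold. CATSPERG, an auxiliary subunit, measured 5.29, 5.46, 8.83, 9.34 and 8.75 and rose by 3.60 (SE 0.23, adjusted p = 0.000168). CATSPER2 measured 4.11, 5.76, 7.22, 7.37 and 6.94, with the 4-week sample above the 1-week sample, and rose by 2.24 (SE 0.47, adjusted p = 0.0106). CATSPER3 measured 2.17, 2.04, 4.53, 3.37 and 4.41. Its 4-month sample was the lowest of the mature ones and still above both infant samples, with a difference of 2.00 (SE 0.37, adjusted p = 0.00668) and, as neither infant sample was well above background, a rise of at least 2.27-fold. CATSPERB, the fifth, rose by 0.99 (SE 0.23, adjusted p = 0.0139), with no infant or mature sample well above background.

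The genes of general ciliary transport changed less. Intraflagellar transport carries material along the axoneme in 2 kinds of train, and 6 of its 12 genes rose by 0.66 to 1.99 while 6 did not pass the test. IFT140, of the train that runs back to the base, measured 2.74, 2.38, 4.43, 4.70 and 4.52 and rose by 1.99 (SE 0.20, adjusted p = 0.000851), at least 3.09-fold. IFT74 and IFT46, of the outward train, rose by 1.96 (SE 0.36, adjusted p = 0.00677) and 1.75 (SE 0.19, adjusted p = 0.00119). IFT122 had the smallest difference, 0.04 (SE 0.19, adjusted p = 0.877). Of the 6 genes named for Bardet-Biedl syndrome, which form or assemble the BBSome, BBS5 rose by 1.61 (SE 0.27, adjusted p = 0.00469) and BBS1 by 0.73 (SE 0.19, adjusted p = 0.0236). BBS7, a core subunit, measured 6.05, 5.74, 5.45, 5.06 and 5.06 and fell, with a difference of -0.70 (SE 0.21, adjusted p = 0.0378). BBS9 differed by 0.39 (SE 0.23, adjusted p = 0.224), and BBS2 and BBS10 did not pass the test either. The calls for BBS1 and BBS7 were each lost in 3 of the 5 fits that left out 1 testis sample. BBS1 was lost without the 4-week (adjusted p = 0.104), the 2-month or the 2-year sample, and BBS7 without the 1-week (adjusted p = 0.174), the 4-month or the 2-year sample.

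The TTLL genes encode enzymes that add glutamate or glycine to tubulin. Of the 9, 5 rose, 1 fell and 3 did not pass the test. TTLL7 rose by 1.96 (SE 0.18, adjusted p = 0.000709), TTLL5 by 1.41 (SE 0.19, adjusted p = 0.00233) and TTLL6 by 1.38 (SE 0.26, adjusted p = 0.00681), all polyglutamylases. TTLL12, an unusual member of the family, measured 8.60, 8.10, 7.00, 6.10 and 6.85. All mature samples lay below both infant ones, and its difference of -1.70 (SE 0.33, adjusted p = 0.00768) was the largest fall among the 84 genes. The glycylase TTLL3 had the smallest difference of those detected in every testis sample, -0.41 (SE 0.22, adjusted p = 0.193).

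The 15 SPATA genes share a naming history and not a function. Of these, 7 rose, 1 fell and 7 did not pass the test. SPATA3 measured 3.32, 3.39, 14.60, 14.95 and 14.76. Its difference of 11.42 (SE 0.18, adjusted p = 2.07e-06), at least 2734-fold, was the largest of all 84 genes. SPATA19, a mitochondrial protein of the sperm midpiece, measured 2.17, 2.49, 9.94, 9.40 and 9.62 and rose by 7.32 (SE 0.23, adjusted p = 8.49e-06), at least 106-fold. SPATA7, also known from the connecting cilium of photoreceptors, measured 3.98, 4.50, 8.58, 9.44 and 8.86 and rose by 4.71 (SE 0.31, adjusted p = 0.000176). SPATA2L fell, with a difference of -0.78 (SE 0.22, adjusted p = 0.0287). That call was lost in 4 of the 5 fits that left out 1 testis sample, all but the one without the 2-year sample, with adjusted p up to 0.122. SPATA21 had the smallest difference, -0.04 (SE 0.24, adjusted p = 0.906). Of the other SPAG genes, SPAG4, a nuclear envelope protein of spermatids, measured 2.57, 1.97, 9.996, 10.07 and 9.88 and rose by 7.71 (SE 0.23, adjusted p = 7.40e-06), at least 133-fold. SPAG5, which acts at the mitotic spindle and not in the axoneme, measured 9.65, 9.34, 11.27, 11.76 and 11.60 and rose by 2.05 (SE 0.22, adjusted p = 0.00113). SPAG7 differed by 0.41 (SE 0.19, adjusted p = 0.124).

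**Figure D2:**
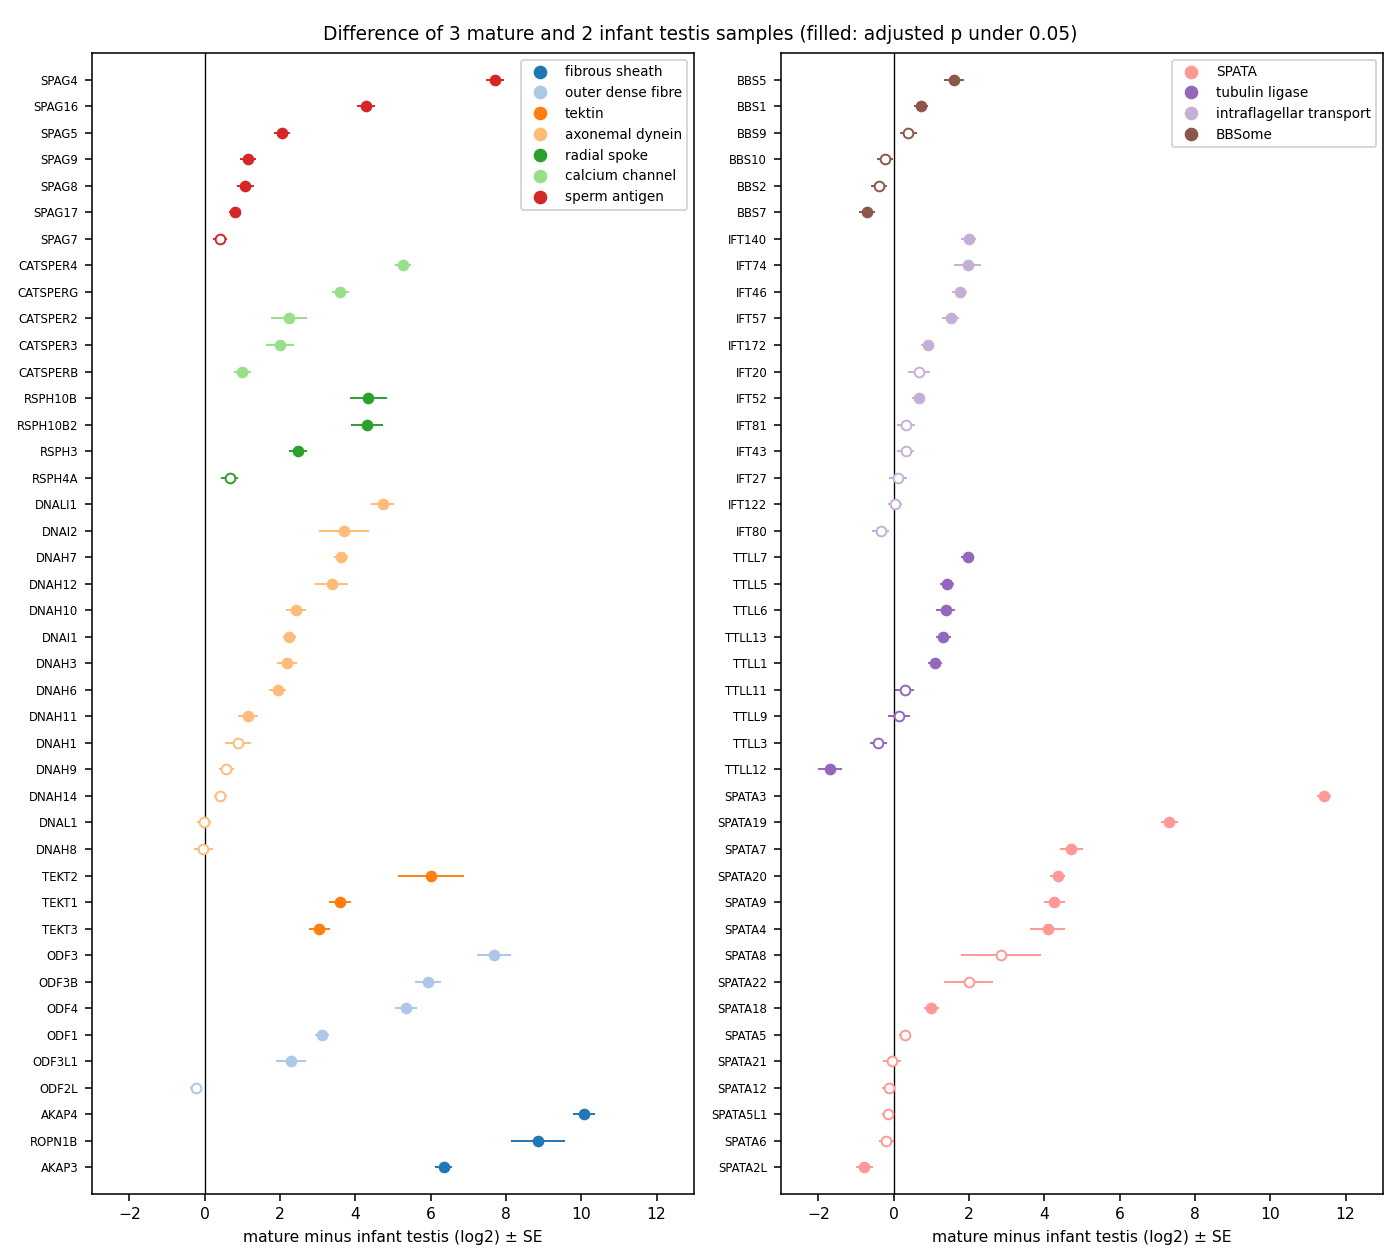
Difference between the means of the 3 mature and 2 infant testis samples (log2, horizontal axis) for all 84 genes, ordered within families, with bars for the standard error of the limma fit over all genes. Filled points passed an adjusted p of 0.05; they range from -1.70 (TTLL12) to 11.42 (SPATA3), and open points cluster around 0 in the IFT, BBSome and TTLL families.

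Most of the rise fell between 4 weeks and 2 months. In that step 48 genes gained at least 2-fold (57.1%, against 12.9% of all genes) and 1, TTLL12, lost at least 2-fold (1.19%, against 17.9% of all genes). From 1 week to 4 weeks 10 genes gained at least 2-fold (11.9%, against 4.23% of all genes), and none lost as much. Between 2 and 4 months ODF3B gained at least 2-fold and ODF3, CATSPER3 and ODF3L1 lost at least 2-fold, with differences of -1.53, -1.16 and -1.13 on the log2 scale (2.29% of all genes up, 2.30% down). Between 2 months and 2 years no gene of the 84 gained or lost as much, where 1.71% of all genes gained and 1.21% lost. Each step compares 2 samples and was not tested. The genes differed in how much of the rise above the 1-week level was already present at 4 weeks. For SPATA8 it was 82.2%, for SPATA22, a gene of meiotic recombination, 74.0%, for CATSPER2 53.9%, for DNAI2 49.4%, for TEKT2 43.3% and for BBS5 41.0%. For SPATA3 it was 0.583%, for ODF3 5.62% and for AKAP3 7.42%, and AKAP4 was lower at 4 weeks than at 1 week. SPATA8 measured 2.78, 6.77, 7.51, 7.36 and 8.02 and SPATA22 3.78, 6.12, 6.81, 7.37 and 6.64, and neither passed the test of mature against infant testis (adjusted p = 0.0717 and 0.0502 by limma). In both genes the 4-week sample lay nearer to the mature samples than to the 1-week sample.

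Markers of the cells of the testis changed as well, in directions that differed between cell types. Of all genes 16.4% were called higher and 27.5% lower in mature testis. Of 9 genes of haploid germ cells on the array 8 rose, and their summed intensity on the linear scale was 199 to 204 in infant and 167890 to 184761 in mature testis. The protamines PRM1 and PRM2 lay at the top of the scale in mature testis. Of 9 genes of meiotic germ cells 3 rose, and their sum was 508 and 3120 in the 2 infant samples and 9716 to 16281 in mature testis. SYCP3, of the chromosome axis in meiosis, measured 7.91, 10.33, 10.70, 10.36 and 10.53 from 1 week to 2 years, so its 4-week sample was level with the mature ones. Of 6 genes of premeiotic germ cells 1 rose and 4 fell, of 6 genes of Sertoli cells none rose and 5 fell, and of 4 genes of Leydig cells none rose and 2 fell. The summed Sertoli intensity was 5781 to 7277 in infant and 1740 to 2439 in mature testis. The part of these shifts in cell content in the result was not tested.

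Other genes of cilia and axonemes, which the naming rule does not match, were counted in the same way. Of 52 on the array, 29 rose (16.4% of all genes), 3 fell (27.5% of all genes) and 20 did not pass the test, with a median difference of 0.88. LRRC6, needed to assemble dynein arms in the cytoplasm, measured 5.12, 7.84, 11.77, 11.63 and 11.75 and rose by 5.23 (SE 0.72, adjusted p = 0.00255). ZMYND10, a partner of LRRC6, measured 6.38, 8.57, 11.88, 12.52 and 11.86 and rose by 4.62 (SE 0.62, adjusted p = 0.0023). SEPT12, a septin of the ring between midpiece and principal piece, measured 2.61, 7.43, 13.04, 13.09 and 12.996 and rose by 8.03 (SE 1.26, adjusted p = 0.00382). FOXJ1, the transcription factor that drives motile cilia, measured 4.19, 5.29, 4.15, 4.04 and 4.37. Its highest value was the 4-week sample, and the groups overlapped, with a difference of -0.55 (SE 0.34, adjusted p = 0.235). FOXJ1, LRRC6 and ZMYND10 also belong to a list of 12 multiciliated cell genes on the array, of which 7 rose and 1 fell. Of 2 genes of the oviduct secretory epithelium none passed the test, with 0 rises and 0 falls, and of 4 choroid plexus genes 1 rose.

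Mature testis also stood above the other organs in most of the 84 genes. By limma over the 68 testis and organ samples, 52 genes were higher in mature testis than in each of the 7 other tissues (61.9%), a call made for 13.9% of all genes, and 2 were lower than in each (12.7% of all genes). Among the 52, CATSPERB and DNAH1 were not well above background in any mature testis sample. The median difference from the highest of the 7 tissues was 1.03 for the 84 genes and -0.96 for all genes. These medians were 0.50 and -0.39 with an offset of 50, and 1.02 and -1.15 with median scaling. In 31 genes (36.9%, against 6.13% of all genes) the measured mean of mature testis was at least 4-fold above that of the highest tissue. For 14 of these no sample of the tissue that sets the fold was well above background and the fold is a bound, which stayed under 4 for DNAI1 (at least 2.29-fold) and IFT140 (at least 2.05-fold). AKAP4 exceeded its highest tissue, kidney, by 10.69 (SE 0.23, largest adjusted p = 2.55e-47), at least 827-fold over every tissue. SPATA3 exceeded spleen by 10.36 (SE 0.31, largest adjusted p = 7.01e-40), ROPN1B exceeded hypothalamus by 9.24 (SE 0.42, largest adjusted p = 4.96e-30), TEKT2 exceeded liver by 7.50 (SE 0.29, largest adjusted p = 2.24e-33) and SPAG4 exceeded cortex by 7.12 (SE 0.27, largest adjusted p = 2.62e-34). TEKT2 and SPAG4 were not well above background in any liver sample, and with liver at its background level they were at least 158-fold and at least 88.4-fold above the other tissues. TTLL12 and IFT80, of the outward transport train, were the 2 genes lower in mature testis than in every other tissue, with largest adjusted p of 3.84e-11 and 0.000352. SPATA4 had its highest mean in liver. Its values in the 9 liver samples had a minimum, median and maximum of 7.58, 8.04 and 8.88. The 3 mature testis samples measured 7.60, 7.80 and 7.71, within the liver range, and no sample of the other 6 tissues exceeded 3.54. Both SPATA4 probes were bright in liver, at 7.33 and 8.95 on average, while in mature testis they gave 4.95 and 10.46. SPAG5 was not called against bone marrow, where it had a minimum, median and maximum of 5.54, 11.05 and 11.52.

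Genes detected mainly in testis were separated from general cilium genes, leaving out ovary and renal pelvis. A gene was called testis-restricted when it lay above the detection limit in all 3 mature testis samples and in at most 5% of the 63 other samples, general when it lay above the limit in at least 90% of these, and intermediate in between. Only 5 of the 84 genes were restricted: AKAP4 (detected in 2 of 63), TEKT3 and DNAI1 (3 each), IFT140 (1) and CATSPER3 (0, a limit set by the array background and not by counting). Of all genes on the array 1.13% were restricted. Apart from AKAP4 these genes were dim in mature testis too, with means of 4.10 (CATSPER3), 4.55 (IFT140), 4.71 (DNAI1) and 5.72 (TEKT3). For them, a weaker signal in other tissues can lie under the detection limit, so the class does not show absence there. SPAG4 lay just outside, with 6 of 63. With the 4 ovary samples counted, AKAP4 was detected in 6 of 67 samples (8.96%), above the limit of the class, and the other 4 genes in 0 to 3 of 67. A further 50 genes were general (59.5%, against 66.5% of all genes), 23 intermediate, and 6 were not detected in all mature testis samples (BBS10, DNAH8, RSPH4A, SPATA12, TTLL11 and TTLL9). The restricted class depended on how detection was defined. It held 13 genes when the scanner's well-above-background flag was used, 4 of them among the 5 above, and CATSPER3 was not one of the 13. With the processed scanner signal it held 6 genes, 3 of them among the 5 above (AKAP4, CATSPER3 and IFT140). It held 3 with the added offset of 50, and 1, CATSPER3, when only the brightest probe of each gene was kept.

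Detection elsewhere and enrichment in testis were not the same thing. Of the 50 general genes 15 were at least 4-fold higher in mature testis than in any other tissue (30%, against 4.00% of all general genes), and these 15 included genes of sperm-specific structures: AKAP3, ROPN1B, ODF1, ODF3B and ODF4. AKAP3 lay above the detection limit in all 63 other samples, with a minimum, median and maximum of 6.96, 8.56 and 10.21 in cerebellum. Mature testis exceeded cerebellum by 5.44 (SE 0.28, largest adjusted p = 9.78e-27). Of the 23 intermediate genes 12 were enriched in the same sense (52.2%, against 20.3% of all intermediate genes), among them TEKT1, TEKT2, CATSPER4, SPAG4, ODF3 and SPATA19. No gene of the TTLL or BBSome families reached a measured 4-fold over every tissue, and of the 12 transport genes only IFT140 did, with the lower bound given above. The 35 general genes without enrichment included 10 of the 12 transport genes, 7 TTLL genes and 4 BBSome genes. Of these 35, 17 rose in mature testis, 3 fell and 15 did not pass the test, with a median difference of 0.66, while in the 15 enriched general genes all rose, with a median of 4.35. Enrichment and the rise share the mature samples, so the second split describes the data and was not tested.

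**Figure D3:**
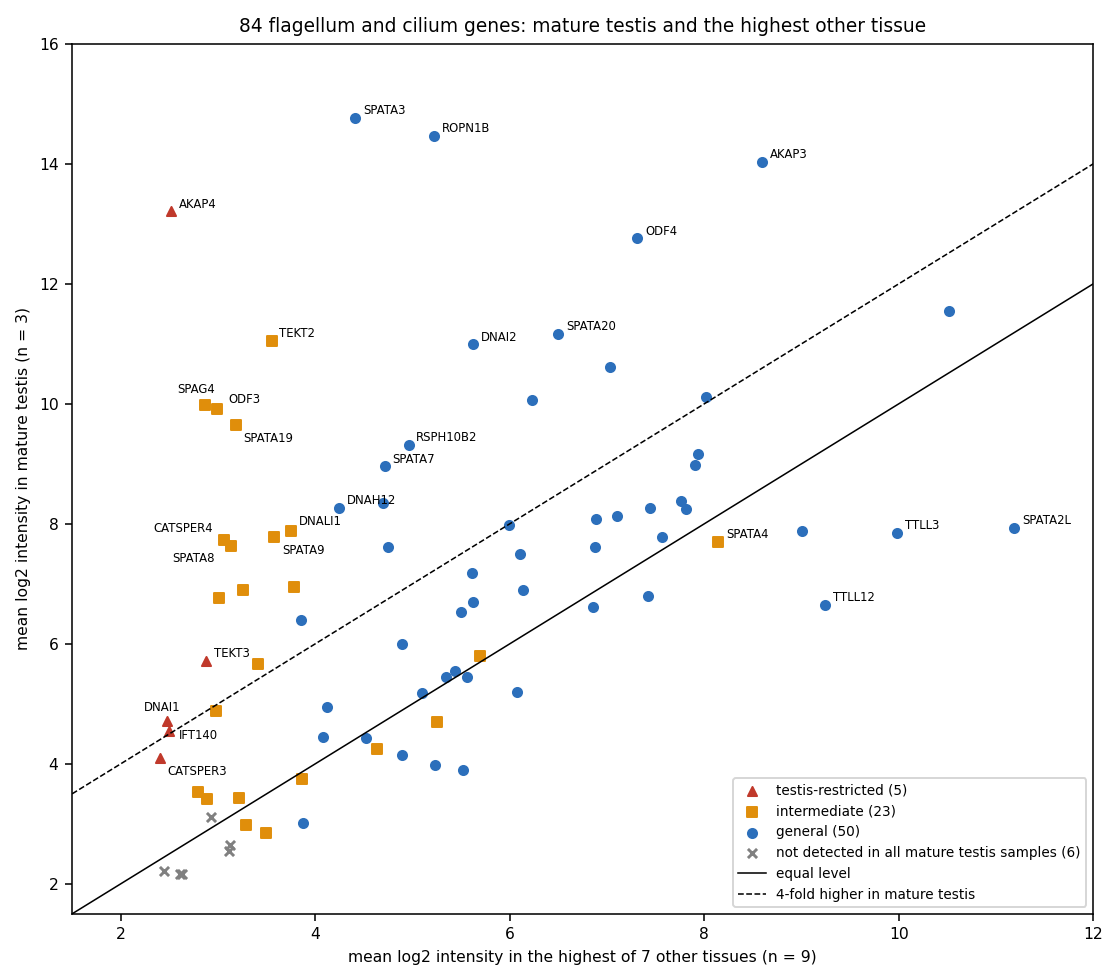
Mean log2 intensity of each of the 84 genes in mature testis (n = 3, vertical axis) against its mean in the highest of the 7 other tissues (n = 9, horizontal axis), with shape and colour for the detection class. The solid line marks equal levels and the dashed line a 4-fold excess in testis, above which 31 genes lie. Among the genes below the solid line are TTLL12 and IFT80, lower in mature testis than in each tissue, and SPATA4, brightest in liver.

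Infant testis stood out less. It was higher than each of the 7 tissues in 7 genes (8.33%, against 3.99% of all genes): TEKT2, DNAI2, SPATA8, SPATA22, BBS2, DNAH12 and IFT20. SPATA8 exceeded bone marrow by 1.64 (SE 0.32, largest adjusted p = 3.12e-05) and DNAI2 exceeded hypothalamus by 1.67 (SE 0.41, largest adjusted p = 0.000531). No gene was lower in infant testis than in each tissue by limma, either at an adjusted or at an unadjusted p under 0.05 (0.417% of all genes were called). The 7 calls were lost without the 4-week sample, a fit that leaves a single infant sample and cannot show which sample carried them. SPATA8 and TEKT2 then differed from the highest tissue by -0.36 and -0.17. At 1 week BBS2 (8.62), DNAI2 (6.09) and IFT20 (7.01) lay above the mean of their highest tissue (7.76, 5.63 and 6.89). DNAH12 (4.23) and SPATA22 (3.78) were about level with theirs (4.25 and 3.78). Without the 1-week sample 9 genes were called. Of 9 meiotic genes on the array 7 were higher in infant testis than in each other tissue.

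The array holds a second set of probes for some of these genes under transcript identifiers. Of 10818 such identifiers 3019 had a symbol in the RefSeq gene table of the pig assembly Sscrofa11.1, and 23 of those symbols match the naming rule, 13 of them absent from the 84. Of the 23, 19 were higher in mature than in infant testis (16.4% of all genes), none was lower (27.5% of all genes) and 4 did not pass the test. In mature testis 22 were higher than in each other tissue (13.9% of all genes). They included CATSPER1, a pore gene of the calcium channel (3.10 in infant and 8.97 in mature testis), SPAG6 of the central pair (5.76 in infant and 10.53 in mature testis), TEKT5 (4.89 in infant and 10.08 in mature testis) and ROPN1L (7.14 in infant and 12.20 in mature testis). ODF2, a main protein of the outer dense fibres and of the centrosome, differed little (6.12 in infant and 6.56 in mature testis, adjusted p = 0.0866 by limma).

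Both names were present for 10 genes, which allowed a check of the probes. Of these, 8 had the same call from both sets of probes. The other 2 differed in kind. SPATA6, which is required for the connecting piece of sperm, was level by its symbol, at 4.18, 4.49, 4.11, 3.98 and 4.32 from 1 week to 2 years, but by its identifier went from 5.26 to 11.93 (difference 6.67, adjusted p = 4.46e-05). TTLL9, a polyglutamylase of the sperm tail, was not detected by its symbol, with a mature mean of 2.16, but by its identifier went from 2.63 to 6.40 (difference 3.77, adjusted p = 0.000101). CATSPER3 passed the test with both sets, but only the symbol's probes placed it in the restricted class.

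**Figure D4:**
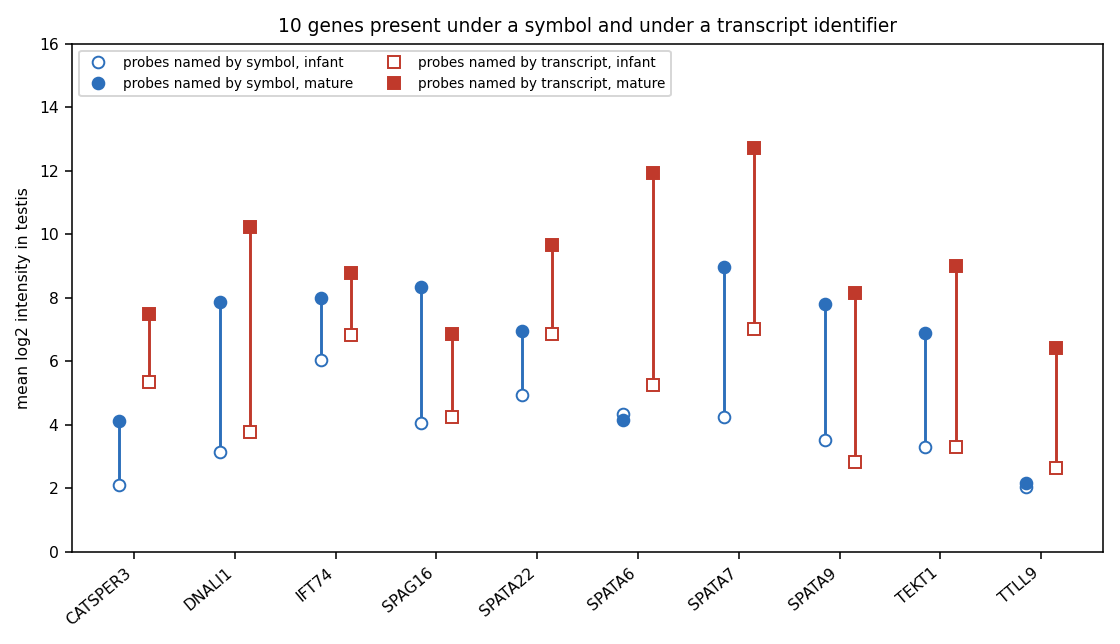
Mean log2 intensity (vertical axis) in infant (n = 2, open) and mature testis (n = 3, filled) for the 10 genes measured both by probes under the gene symbol (blue circles) and by probes under a transcript identifier (red squares). SPATA6 and TTLL9 are flat by symbol and rise by 6.67 and 3.77 by identifier, while the means of the other 8 rise by both.

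Outside testis, the brain regions were compared because motile cilia line the brain ventricles, next to the hypothalamus. Between hypothalamus and cerebral cortex 8 genes were higher in hypothalamus (8.84% of all genes) and 4 lower (8.05% of all genes), shares of 9.52% and 4.76% of the 84. Of these calls 66.7% were higher in hypothalamus, which moved to 50% with the processed scanner signal or the series table, with 3 genes each way. With age and sex as a fixed block 16 genes were higher and 6 lower. ODF3B had a minimum, median and maximum of 5.63, 6.85 and 8.68 in hypothalamus and 4.31, 4.97 and 6.84 in cortex. The regions overlapped, with a difference of 1.56 (SE 0.32, adjusted p = 0.000115) by limma. DNAI2 had 4.54, 5.13 and 8.00 in hypothalamus and 4.19, 4.36 and 4.79 in cortex, a difference of 1.20 (SE 0.25, adjusted p = 0.000137). The inner arm dynein genes DNAH12 and DNAH3 differed by 0.78 (SE 0.16, adjusted p = 0.000203) and 0.45 (SE 0.16, adjusted p = 0.0394), and the tubulin polyglutamylase TTLL7 by 0.73 (SE 0.24, adjusted p = 0.0232). Lower in hypothalamus was DNAH10, another inner arm heavy chain, at 6.45, 6.64 and 7.61 against 7.77, 8.02 and 8.25 with no overlap and a difference of -1.13 (SE 0.21, adjusted p = 2.96e-05). SPATA2L differed by -1.05 (SE 0.14, adjusted p = 9.86e-09), TTLL12 by -0.65 (SE 0.15, adjusted p = 0.000916) and SPAG4 by -0.63 (SE 0.19, adjusted p = 0.0119), SPAG4 being not well above background in either region.

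The highest hypothalamus values of DNAI2 and ROPN1B came from the same 3 samples. For DNAI2 the 4-week female measured 8.00, the 4-month female 6.67 and the 1-week male 6.50, while the other 6 lay between 4.54 and 5.25. For ROPN1B these samples measured 7.39, 6.78 and 6.28 against 4.01 to 5.22, without overlap in either gene. For ODF3B they measured 8.68, 8.26 and 7.55 against 5.63 to 7.63 and for DNAH12 4.96, 5.26 and 4.25 against 3.59 to 4.26, so that in these genes the 1-week male lay within the range of the other 6. The summed intensity of 12 multiciliated cell markers was 3558, 3437 and 4634 in the same samples and 2076 to 4294 in the other 6, so the ranges overlapped. It was 1710 to 2152 in cortex and 901 to 1068 in cerebellum. Of the 12 genes, limma called 2 higher and 0 lower in hypothalamus than in cortex (8.84% and 8.05% of all genes). Against cerebellum it called 5 higher and 1 lower (17.8% and 20.3% of all genes). The summed intensity of 4 choroid plexus genes was 585 to 1008 in hypothalamus, 75.9 to 129.6 in cortex and 77.0 to 598 in cerebellum. The higher sum came mainly from OTX2, a homeobox gene that neurons of some brain regions also use, at 9.50 in hypothalamus and 2.40 in cortex (adjusted p = 3.06e-25 by limma), while transthyretin (TTR), the defining gene, had a mean of 3.53 in hypothalamus and 3.63 in cortex. The part of cell content in these differences was not tested.

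Between hypothalamus and cerebellum 17 genes were higher in hypothalamus (17.8% of all genes) and 12 lower (20.3% of all genes), shares of 20.2% and 14.3%. Of these calls 58.6% were higher in hypothalamus, and 46.2% with the processed scanner signal. TTLL7 had the largest positive difference, 1.33 (SE 0.24, adjusted p = 4.53e-06), followed by ROPN1B at 1.29 (SE 0.29, adjusted p = 0.000232), DNAI2 at 1.23 (SE 0.25, adjusted p = 3.28e-05), DNAH10 at 1.09 (SE 0.21, adjusted p = 1.93e-05) and ODF3B at 1.07 (SE 0.32, adjusted p = 0.00492). Cerebellum was the higher region for some genes of motile structures. DNAH3 had a minimum, median and maximum of 5.26, 5.56 and 6.51 there and 2.89, 3.46 and 4.44 in hypothalamus. Every cerebellum sample lay above every hypothalamus sample, with a difference of -2.11 (SE 0.16, adjusted p = 8.64e-18) for hypothalamus minus cerebellum. AKAP3 had 6.96, 8.56 and 10.21 in cerebellum and 6.20, 6.91 and 7.32 in hypothalamus, a difference of -1.79 (SE 0.20, adjusted p = 2.43e-11) with some overlap, and both of its probes showed it (8.65 and 8.54 in cerebellum, 6.87 and 6.74 in hypothalamus). CATSPERG differed by -1.49 (SE 0.19, adjusted p = 1.92e-09), SPAG5 by -1.42 (SE 0.58, adjusted p = 0.0448) and SPATA3 by -0.74 (SE 0.22, adjusted p = 0.00478).

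**Figure D5:**
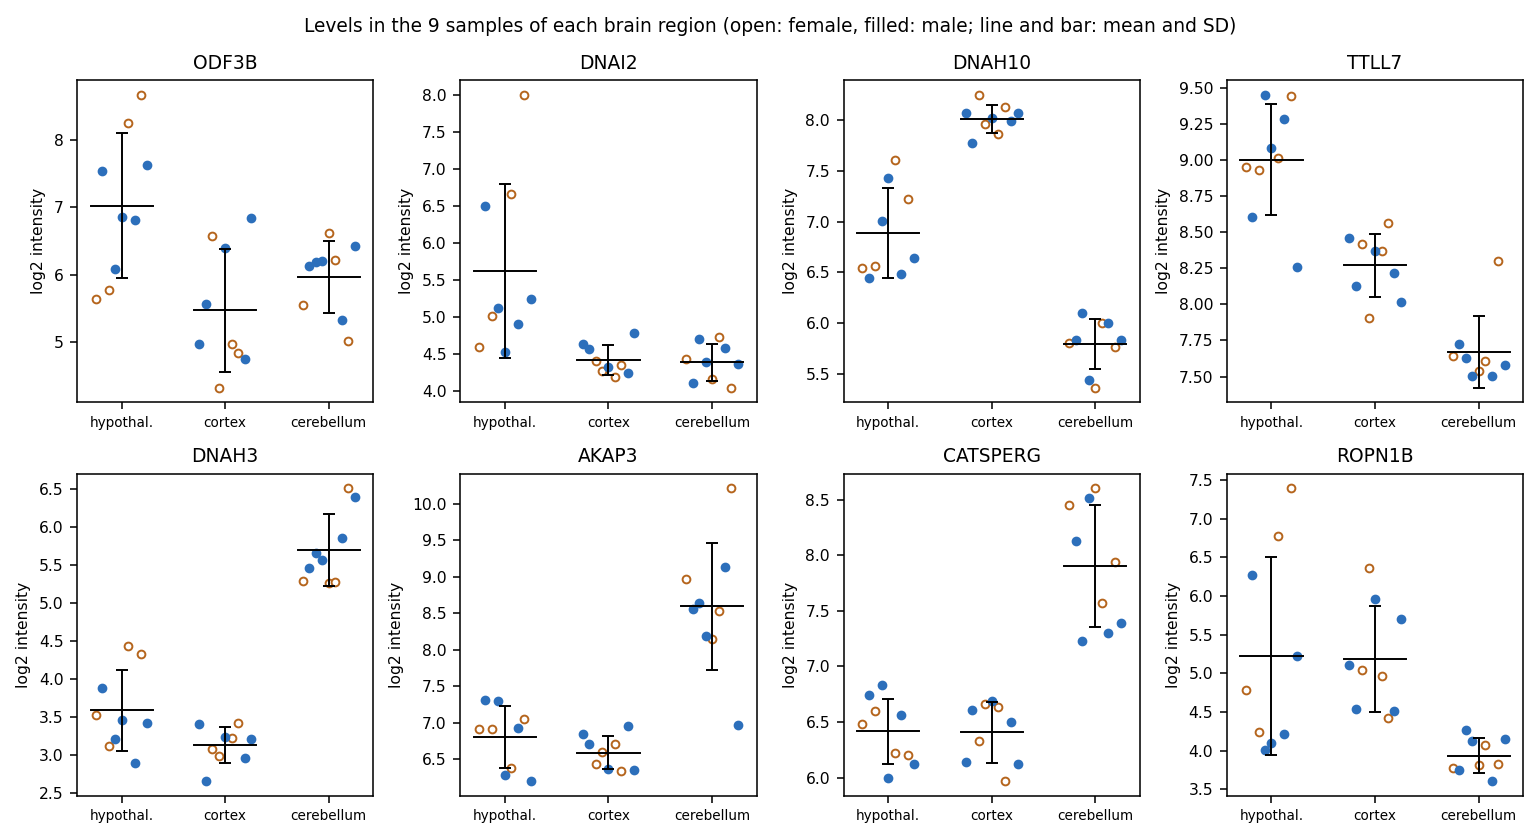
Log2 intensity (vertical axes, scaled per panel) of 8 genes in the 9 samples of hypothalamus, cerebral cortex and cerebellum, with open points for females, filled points for males, and lines and bars for the mean and SD. DNAI2 and ROPN1B are spread widely in hypothalamus, up to 8.00 and 7.39, DNAH10 is highest in cortex, and DNAH3, AKAP3 and CATSPERG are highest in cerebellum.

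The 3 brain regions together were compared with liver, kidney, spleen and bone marrow. In brain 36 genes were higher (42.9%, against 32.5% of all genes) and 18 lower (21.4%, against 46.5% of all genes). Of the called genes 66.7% were higher in brain, a split that moved to 46.7% with median scaling (28 higher, 32 lower), to 53.7% with the processed scanner signal and to 54.5% with the series table of normalized values, so no direction is given for the families. TTLL7, known as a glutamylase of neuronal microtubules, stood at 8.31 on average in brain and 4.28 in the other organs, a difference of 4.04 (SE 0.13, adjusted p = 9.05e-39) or 16.4-fold. SPATA2L followed at 1.74 (SE 0.07, adjusted p = 1.53e-31), SPATA5, an ATPase of ribosome assembly, at 1.64 (SE 0.08, adjusted p = 9.75e-28), BBS1 at 1.60 (SE 0.07, adjusted p = 3.65e-31) and TTLL1 at 1.59 (SE 0.10, adjusted p = 3.14e-22). The largest differences in the other direction were SPAG5 at -1.57 (SE 0.31, adjusted p = 8.12e-06), SPATA4 at -1.20 (SE 0.08, adjusted p = 3.45e-21), DNAH11 at -1.005 (SE 0.11, adjusted p = 1.76e-12), TTLL3 at -0.99 (SE 0.10, adjusted p = 1.34e-13) and CATSPER2 at -0.80 (SE 0.07, adjusted p = 1.59e-15). With liver left out of the mean of the other organs the SPATA4 difference turned to 0.12 (adjusted p = 0.197 by limma) and that of CATSPER2 was -0.49, and with bone marrow left out SPAG5 did not pass the test (-0.65, adjusted p = 0.0707).

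Few of these genes were called for age outside testis, where at most 8.43% of all genes were called in any tissue. Samples of 2 and 4 months (n = 4) were compared with those of 1 and 4 weeks (n = 4) within each tissue, without the 2-year samples. By limma 4 genes were called in kidney (8.43% of all genes), 3 in spleen (3.12% of all genes) and 1 in cerebellum (2.28% of all genes). None was called in hypothalamus (0% of all genes), cortex (1.71%), liver (1.8%) or bone marrow (0.793%). At an unadjusted p under 0.05, 6, 14, 11 and 11 genes passed in these tissues and 17, 14 and 8 in kidney, spleen and cerebellum. The share of all genes at that threshold was not counted. SPAG5, of the mitotic spindle, ranged from 6.76 to 8.16 in the 4 younger samples and 4.11 to 5.39 in the 4 older ones in kidney, with no overlap and a difference of -2.72 (SE 0.37, adjusted p = 0.0057). This was the only one of the 8 calls kept in all 8 fits that left out 1 age and sex; the other 7 were kept in 1 to 3 of them, with adjusted p up to 0.129. CATSPERG ranged from 7.23 to 7.94 in the 4 younger samples and 8.13 to 8.60 in the 4 older ones in cerebellum, a difference of 0.91 (SE 0.17, adjusted p = 0.0319). The remaining differences were smaller: SPAG17 by 0.57 (SE 0.14, adjusted p = 0.0368), SPAG7 by -0.46 (SE 0.12, adjusted p = 0.0432) and TTLL1 by -0.61 (SE 0.15, adjusted p = 0.0372) in kidney, and CATSPER2 by 0.67 (SE 0.14, adjusted p = 0.0416), SPAG9, a signalling scaffold, by 0.71 (SE 0.14, adjusted p = 0.036) and TEKT1 by -0.68 (SE 0.13, adjusted p = 0.0335) in spleen.

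Ovary, with 1 sample per age, was described without a test. In 2 of the 84 genes the mean of the 4 ovary samples was at least 2-fold above the highest of the 7 tissues (2.38%, against 2.19% of all genes): ROPN1B and BBS2, the latter a core BBSome subunit. ROPN1B measured 8.41, 7.33, 7.32 and 6.04 in order of age, and all 4 samples lay far below the mature testis. ODF3B measured 8.69, 8.65, 5.99 and 5.02 in order of age and DNAI2 6.84, 7.25, 5.94 and 5.07 in order of age. The 2 younger ovaries were the higher ones for both genes. In the single renal pelvis sample ODF3B measured 8.36 against 6.93 in the kidney of the same age and sex, the only one of the 84 at least 2-fold higher there, and BBS5 and SPATA18 were at least 2-fold lower. Of all genes 5.25% were as much higher and 4.81% as much lower.

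In 2 samples from outside the testis the protamine signal was raised. PRM1 measured 9.87 in the 4-month male cortex and 8.88 in the 2-month male kidney, while the third highest of the 63 samples measured 6.90 and the median was 3.75. AKAP4 measured 3.64 and 3.16 in these samples, the 2 of the 63 in which it lay above the detection limit, and between 12.84 and 13.62 in mature testis. Without both samples all 84 genes kept their detection class, and 52 genes were again higher and 2 lower in mature testis than in each tissue. AKAP4 lay above the detection limit in all 4 ovary samples too, at no more than 3.17.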

How the data were processed

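RNA of 80 arrays was analysed, 73 samples after the 8 technical repeats of the 2-year male kidney were averaged. Per the study's methods, the authors scanned 1-colour Agilent arrays, corrected the background and quantile normalized with the RMA method, averaged the probes of a gene and took log2. The deposited scanner files hold each spot's median and processed signal as intensity from Agilent Feature Extraction 11.5.1.1, per the submitters' processing notes, and the deposited series table holds the authors' normalized log2 values, which served as an alternative.

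Here the median signals were background-corrected with normexp (offset 0), quantile normalized between arrays and averaged over technical repeats and then over probes, leaving out control spots. Of the genes, 14 were dropped for missing values, none of them among the 84. The detection limit of an array was the 95th percentile of its 308 negative control spots. The number of arrays limits the precision.

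Groups were compared with limma 3.58.1 in R 4.3.3, with data.table (version 1.17.8) and jsonlite 2.0.0, and Benjamini-Hochberg adjustment over all 23722 genes at 0.05. Mature and infant testis were compared over the 5 testis samples, organs over 68 samples with 1 mean per tissue, and ages within a tissue over 8 samples. A call against the other organs required an adjusted p under 0.05 and the same direction against each of 7 tissues. On simulated data with 200 genes changed by 2 on the log2 scale among 23722, the comparison of mature with infant testis recovered 63% of them, that with the other organs 92%, that of hypothalamus with cortex 99% and that of ages in kidney 90.5%. In the same order, 6.67%, 0%, 7.04% and 4.74% of the calls were false. Every simulated sample had the spread of the 8 kidney samples up to 4 months and the same mean per gene. The rates therefore do not describe the spread of testis or brain samples.

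The members and gene lists were chosen with earlier results of these data known. Per family, the text names up to 3 genes with the largest rise past the threshold, the gene with the smallest difference among those detected in every testis sample, and all falls; per other comparison, up to 5 genes in each direction; and a fixed set of well-known flagellum genes. SPATA4, SPATA6, TTLL9, the genes of the timing description and those of the ovary and renal pelvis were chosen after their values were seen, as were LRRC6, ZMYND10, SEPT12, FOXJ1 and SYCP3 from their lists. Alternatives were another offset, scaling, processed signals, probe summary, detection limit, blocks for age, sex and slide, leaving out each sample, and leaving single organs out of the mean. Coordinates and probe sequences were not used here.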

Additional observations from a re-analysis of the deposited data

Results flagged for a closer look

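In 3 of the 35 groups of samples checked, 1 sample lay far from the others of its tissue, where chance flags about 1 in 20 groups. SPAG5, of the mitotic spindle, measured 5.54 in the 2-year male bone marrow, and the other 8 bone marrow samples measured 10.69 to 11.52. TTLL7, the tubulin glutamylase, measured 8.30 in the 1-week female cerebellum, where the next highest sample measured 7.73. AKAP4, of the fibrous sheath, measured 3.64 in the 4-month male cortex, where the next highest measured 2.52, and PRM1 measured 9.87 in that sample.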

How the results depend on the processing

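Across the settings tried, the count of genes higher in mature than in infant testis ran from 33 to 60 and the count higher than in each tissue from 31 to 52, with 33 and 31 where a 4-fold difference was required as well. Genes lower in mature than in infant testis numbered 6 with the brightest probe of each gene, 0 with the 4-fold minimum and 1 to 2 without single testis samples. Genes lower than in each tissue numbered 4 with median scaling, and genes lower in brain 32. Genes higher in hypothalamus than in cortex numbered 3 with the processed signal, 5 with the brightest probe, 3 with the series table and 16 with age and sex as a fixed block. Age calls within tissues numbered 14 with an offset of 50, 4 with median scaling, 5 with the brightest probe, 3 with sex as a block, 18 with slide as a covariate and 1 to 15 without single samples. Infant testis calls ran from 0 to 9 without single samples. The restricted class held 3 genes with an offset of 50, 1 with the brightest probe and 13 with the scanner flag, which left 33 general and 13 undetected. The cause of these shifts was not tested.

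Reversals of direction were found mostly for genes near 0. For mature against infant testis SPATA21 gave 0.39 with the processed signal, 0.0075 with median scaling, 0.17 with the series table, 0.15 with slide and -0.26 to 0.18 without single samples. ODF2L gave 0.041 with the median of probes, DNAL1 -0.11 to 0.062 and IFT122 -0.11 to 0.19 without single samples, and IFT122 -0.063 with slide. Against the other organs RSPH4A gave -0.34 with the processed signal and -0.0822 with median scaling. In brain against the other organs SPATA4 gave 0.12 with liver left out of their mean. In infant testis against the organs SPATA8 ran from -0.36 to 3.63 and TEKT2 from -0.17 to 3.15 without single samples. Of the values of single named genes, 1401 kept their direction and side of the threshold, 122 lost and 8 gained the call, and 18 turned direction.

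The labels do not say that samples of one age and sex came from the same animal. With age and sex as a random replicate block, whose estimated correlation was 0.0689, 52 genes were higher and 2 lower in mature testis than in each tissue, and 36 were higher and 19 lower in brain. No paired analysis was possible for mature against infant testis because each age of testis is 1 sample. The series table, slide, single organs left out of the mean and the fits without the 2 samples with raised protamine signal were added after seeing the data.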
